A study of Sus scrofa with 2 samples.

Results

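The miR-10, miR-99/100 and miR-125 families were examined on miRNA arrays of the anterior pituitary, the hormone-secreting lobe of the gland, from Bama minipigs and from Landrace pigs. Members were all probes for annotated pig miRNAs that carry the number of these families in their name, and they made up 7 of the 355 probes on the array: ssc-miR-10a, ssc-miR-10b, ssc-miR-99a, ssc-miR-99b, ssc-miR-100, ssc-miR-125a and ssc-miR-125b. Small RNAs were tagged, hybridised to a custom miRNA array and then stained with Cy5. Bama minipigs, a small and slow-growing Chinese breed, were compared with Landrace pigs, a large European breed. Each breed was represented by female piglets 20 days of age with no treatment, as 1 pool of 3 pigs on 1 array. With 1 array per breed there is no spread between samples, so no p-value, error or interval is given, and a difference between breeds cannot be told apart from a difference between these pools or arrays. All signals are intensities from which the authors had subtracted background, and each log2 ratio is Bama minipigs over Landrace pigs.

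MicroRNAs guide Argonaute proteins to messenger RNAs mainly through the seed, bases 2 to 8 of the mature miRNA, and so lower the output of those messages. The miR-10 and miR-99/100 families are related in sequence, and miR-10 genes lie inside the HOX clusters, which pattern the trunk of the embryo. The miR-99/100 genes lie in clusters with genes of the let-7 and miR-125 families, miRNAs known from developmental timing and cell differentiation, and cluster members can be cut from a shared primary transcript.

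The mature sequences of all members are shown because the families are defined by them, with the seed in capitals, as listed in the array design of the study.
ssc-miR-10a: uACCCUGUagauccgaauuugu
ssc-miR-10b: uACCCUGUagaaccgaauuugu
ssc-miR-99a: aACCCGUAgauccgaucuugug
ssc-miR-100: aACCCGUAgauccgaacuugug
ssc-miR-99b: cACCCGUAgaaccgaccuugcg
ssc-miR-125a: uCCCUGAGacccuuuaaccugug
ssc-miR-125b: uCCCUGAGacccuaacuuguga
The 7 members carried 3 seeds, 1 per family, and 0 of the other 348 probes shared any of them. With positions counted from 1 at the 5′ end, ssc-miR-100 and ssc-miR-99a differed only by A16U, and ssc-miR-10a and ssc-miR-10b only by U12A. From ssc-miR-100 to ssc-miR-99b the substitutions were A1C, U11A, A16C and U21C. Although their seeds differ, ssc-miR-100 was 4 edits (substitutions, insertions or deletions) from ssc-miR-10a. ssc-miR-125a and ssc-miR-125b were also 4 edits apart. No probe outside the families came closer than 8 edits to a member. At 8 edits lay Y-62, a probe designed by the study, from ssc-miR-10a, ssc-miR-148a (tied with another probe) from ssc-miR-10b, and Y-5 from ssc-miR-125b. ssc-miR-199b* was 9 edits from ssc-miR-100 and Y-64 (tied) 9 from ssc-miR-125a, while Y-7 (tied) was 10 from ssc-miR-99a and Y-53 (tied) 10 from ssc-miR-99b. Such close targets can bind each other's probes, and how far ssc-miR-99a and ssc-miR-100 were measured apart was not tested.

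A mean signal of at least 100 over both arrays was required for a ratio, which 182 of the 355 probes met. Of the 7 members, 5 met it, each with a signal far above 100 on both arrays, and the 2 miR-10 probes did not. Of these 5 members, 4 had a lower signal in Bama minipigs and 1 a higher signal, where 49.5% of the 182 probes were lower. None of the 5 differed by 2-fold or more, where 16.5% of the 182 probes did, 13.2% higher and 3.3% lower in Bama minipigs. For as few as 5 members this is near that share, so nothing is read from it. The median log2 ratio was -0.36 over the 5 members and 0.025 over the 182 probes. With median scaling and scaling to the 75th percentile all 5 were lower, and their median was -0.53 and -0.54. Each of these scalings moves every log2 ratio alike, and the median of the 182 probes shifted by -0.17 and -0.18. The share of 49.5%, taken on the deposited signals, therefore does not apply to this count. Ignoring the sign, the median log2 ratio had a size of 0.36 over the members and 0.34 over the 182 probes. All 5 members also had a mean signal of at least 1000, and over the 105 probes of that brightness the median size was 0.23, below that of the members. Of these 105 probes 10 were higher and 2 lower by 2-fold or more.

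The miR-99/100 family, whose known targets include components of the mTOR pathway, had a lower signal in Bama minipigs for all 3 members. The signal of ssc-miR-99a was 7872 on the Bama array and 10653 on the Landrace array, 73.9% of the Landrace level, with a log2 ratio of -0.44. That of ssc-miR-100 was 7028 on the Bama array and 9217 on the Landrace array, or 76.2%, with a log2 ratio of -0.39. That of ssc-miR-99b was 4123 on the Bama array and 5292 on the Landrace array, or 77.9%, with a log2 ratio of -0.36. On the deposited signals the Bama array was therefore lower by a similar share for each of them, and their log2 ratios spanned 0.076. With quantile normalization this likeness did not hold for ssc-miR-99b, which was at -0.61 while ssc-miR-99a and ssc-miR-100 were both at -0.35. ssc-miR-99a and ssc-miR-100, the pair separated by a single base, were close, with the log2 ratio of ssc-miR-99a at -0.045 relative to that of ssc-miR-100. Counted from the lowest log2 ratio of the 182 probes, ssc-miR-99a ranked 25, ssc-miR-100 ranked 32 and ssc-miR-99b ranked 36. Among the 105 probes with a mean signal of at least 1000, the ranks from the lowest were 9 for ssc-miR-99a, 11 for ssc-miR-100 and 13 for ssc-miR-99b. The 3 members stayed lower in Bama minipigs under all 6 other scalings and offsets tried. Median, 75th percentile and summed-signal scaling moved every log2 ratio down, and an offset keeps the sign. Only quantile normalization and cyclic loess could have turned their direction.

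The miR-125 family, vertebrate relatives of the worm timing miRNA lin-4, gave some of the brightest signals of the array. The signal of ssc-miR-125b was 20709 on the Bama array and 22463 on the Landrace array, 92.2% of the Landrace level, with a log2 ratio of -0.12. It ranked 4 among the 355 probes on both arrays. The signal of ssc-miR-125a was 17307 on the Bama array and 16149 on the Landrace array, or 107% of the Landrace level, with a log2 ratio of 0.10, and it ranked 6 and 7. Ranks describe signals rather than amounts, since probes bind their targets with different strength. On the deposited signals the 2 members lay on opposite sides of 0, but their values depended on the scaling. With median scaling both were lower in Bama minipigs, ssc-miR-125a at -0.072 and ssc-miR-125b at -0.29. With scaling to the 75th percentile they were at -0.085 and -0.30 in the same order. With quantile normalization ssc-miR-125b came to 0, which follows from its equal rank on both arrays and carries no further information. Among the 105 probes with a mean signal of at least 1000, counted from the lowest log2 ratio, ssc-miR-125b ranked 34 and ssc-miR-125a ranked 68.

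**Figure D1:**
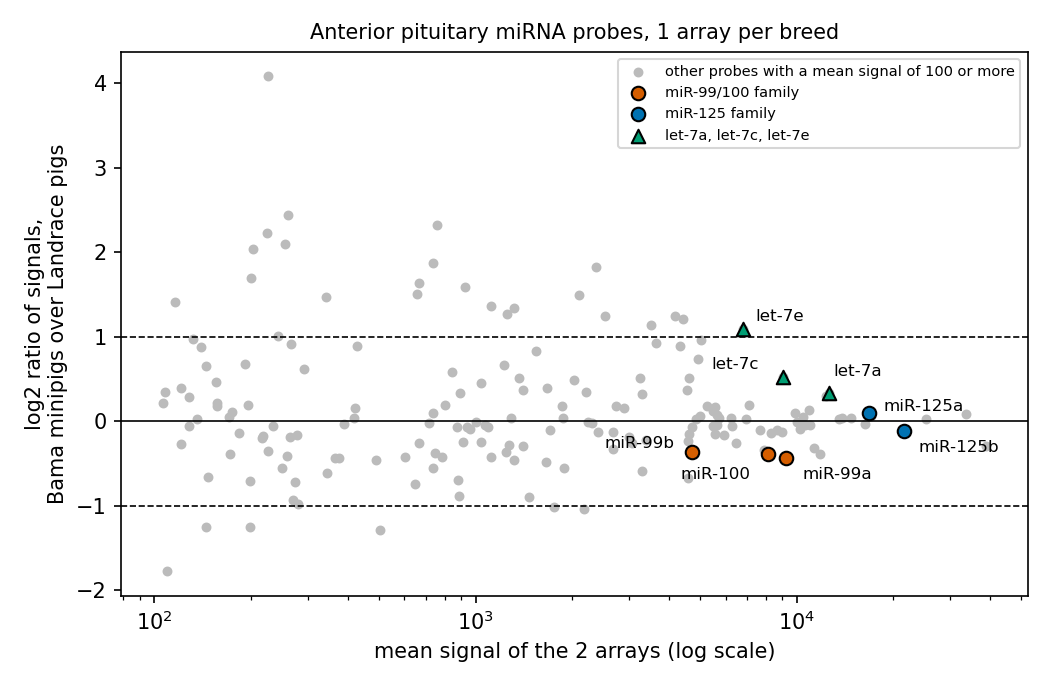
Log2 ratio of signals, Bama minipigs over Landrace pigs, against the mean signal of the 2 arrays (log axis) for the 182 probes with a mean signal of at least 100, each point 1 probe and the dashed lines 2-fold. The 3 miR-99/100 probes sit together between -0.44 and -0.36, the 2 miR-125 probes near 0 (the sign of miR-125a turns with median and 75th percentile scaling), and let-7a, let-7c and let-7e above 0; the miR-10 probes lie under the signal minimum and are not drawn.

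The miR-10 family was near the bottom of both arrays. The signal of ssc-miR-10a was 0.567 on the Bama array and 2.04 on the Landrace array. The signal of ssc-miR-10b was 2.51 on the Bama array and 3.43 on the Landrace array. Signals this close to the subtracted background have no reliable order, and no fold is given for them. A signal of 10 or less on both arrays was found for 84 of the 355 probes, or 23.7%. In the RefSeq annotation of Sscrofa11.1, the gene of miR-10a lies between HOXB3 and HOXB5 and that of miR-10b next to HOXD3. Genes of miR-196a, another miRNA of the HOX clusters, lie beside HOXB8 and HOXC10, and the gene of miR-196b was not looked up. The signal of ssc-miR-196a was 0.235 on the Bama array and 0.00547 on the Landrace array. That of ssc-miR-196b-5p was 2.96 and 0.818, and that of ssc-miR-196b-3p was 5.92 and 2.55, in the same order. All 5 probes of miR-10 and miR-196 were thus at 10 or below on both arrays. A probe of a further miRNA from the HOXC cluster, ssc-miR-615, chosen after its values were seen, gave 2.57 on the Bama array and 20.3 on the Landrace array. The miR-99/100 probes, close to them in sequence, were bright on the same arrays. Levels of different probes are not compared, since probes bind their targets with different strength, and binding between these families was not tested.

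The members were then set beside their let-7 cluster partners. In the same annotation the genes of miR-125a, let-7e and miR-99b are adjacent, as are those of miR-125b-1, let-7a-1 and miR-100, and that of miR-99a lies next to that of let-7c. In mammals miR-125b has a second gene near miR-99a and let-7c, and its place in that cluster is taken here from this general knowledge, not from the annotation used. Also, let-7a is made from several genes, so a mature signal of miR-125b or let-7a cannot be assigned to a cluster. The sequences of the partners are shown because they too differ by few bases, with the seed in capitals.
ssc-let-7a: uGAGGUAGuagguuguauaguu
ssc-let-7c: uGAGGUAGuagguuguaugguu
ssc-let-7e: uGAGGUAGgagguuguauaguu
From ssc-let-7a the difference was A19G to ssc-let-7c and U9G to ssc-let-7e.

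The let-7 partners had a higher signal in Bama minipigs, opposite to the miR-99/100 members. The signal of ssc-let-7e was 9231 on the Bama array and 4335 on the Landrace array, with a log2 ratio of 1.09. This was past 2-fold, but fell short of it with median scaling (0.92), scaling to the 75th percentile (0.91) and quantile normalization (0.98). The signal of ssc-let-7c was 10659 on the Bama array and 7414 on the Landrace array, with a log2 ratio of 0.52. The signal of ssc-let-7a was 14057 on the Bama array and 11120 on the Landrace array, with a log2 ratio of 0.34. The values of ssc-let-7c and ssc-let-7a shrank with median scaling, to 0.35 and 0.17, and with scaling to the 75th percentile, to 0.34 and 0.15. In each of the 3 clusters the miR-99/100 member thus had the lowest log2 ratio, the miR-125 member came next and the let-7 member had the highest.

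The difference between log2 ratios within a cluster does not move when an array is multiplied by a constant. ssc-miR-99b was at -1.45 relative to ssc-let-7e and -0.46 relative to ssc-miR-125a. ssc-miR-99a was at -0.96 relative to ssc-let-7c and -0.32 relative to ssc-miR-125b. ssc-miR-100 was at -0.73 relative to ssc-let-7a and -0.27 relative to ssc-miR-125b. The same order was found in all 3 clusters under each of the 6 other scalings and offsets, including quantile normalization and cyclic loess, which are not constant factors. The clusters are not independent of each other. ssc-miR-125b stands in 2 of them, ssc-miR-99a and ssc-miR-100 differ by a single base, and the let-7 probes have near-identical targets.

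**Figure D2:**
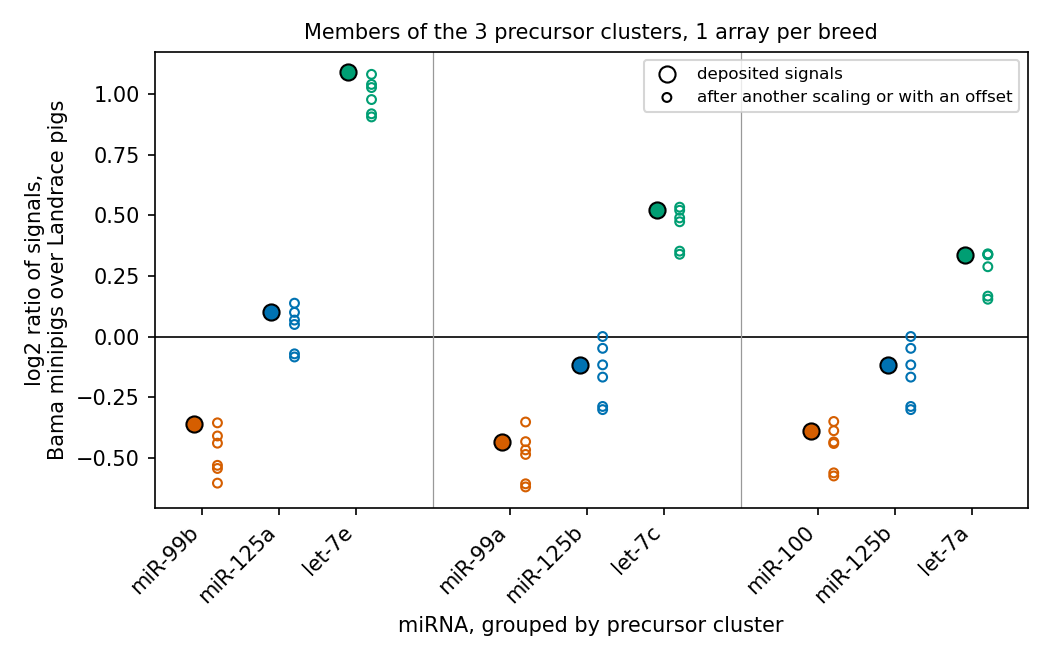
Log2 ratio of signals, Bama minipigs over Landrace pigs, for the members of the 3 precursor clusters, with filled points for the deposited signals and open points for each of the 6 other scalings and offsets. In each cluster the miR-99/100 member is lowest and the let-7 member highest. The log2 ratio of miR-125a turns below 0 with median and 75th percentile scaling. That of miR-125b, drawn in 2 clusters, is set to 0 by quantile normalization because its rank is equal on both arrays.

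All 7 probes of the let-7 family, which includes ssc-miR-98, were higher in Bama minipigs, with a median log2 ratio of 0.34, and 2 were past 2-fold. Probes of this family have near-identical targets, and how far they were measured apart was not tested. Over the 182 probes 49.5% were lower by any size and 13.2% were higher by 2-fold or more. The median was 0.17 with median scaling and 0.15 with scaling to the 75th percentile. With scaling to the median, the 75th percentile or the summed signal 5 of the 7 were higher, and with quantile normalization 5 were higher, 1 was lower and 1 came to 0. The share of the 182 probes higher under these scalings was not counted, so these counts have no background to be set against. Beside the cluster partners, ssc-miR-98 was at 3693 on the Bama array and 1042 on the Landrace array, with a log2 ratio of 1.83. ssc-let-7f had a log2 ratio of 0.30, while ssc-let-7g, at 0.039, and ssc-let-7i, at 0.031, scarcely differed between the arrays. The direction opposite to miR-99/100 thus held under every scaling for the let-7 probes other than ssc-let-7g and ssc-let-7i.

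The probe nearest to each member in its pair of log2 signals was looked up outside the families, with the distance taken over 2 arrays. For ssc-miR-100 it was ssc-miR-126, an endothelial miRNA, at a distance of 0.058 and with signals of 6981 on the Bama array and 8857 on the Landrace array. For ssc-miR-99b it was ssc-miR-181a at 0.098, and for ssc-miR-99a it was ssc-miR-16 at 0.22. For ssc-miR-125a it was Y-1, also designed by the study, at 0.046, and for ssc-miR-125b it was ssc-miR-26a at 0.34. With 2 arrays such likeness means only a similar signal on each.

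A list of miRNAs carried by pituitary endocrine cells, not all of them particular to those cells, was set beside the tissue label. ssc-miR-7, abundant in endocrine cells, ranked 1 on both arrays, at 35031 on the Bama array and 42831 on the Landrace array. All 6 endocrine probes met the signal minimum, as did 182 of the 355 probes. None of the 6 differed by 2-fold, where 16.5% of the 182 probes did. The median log2 ratio of the 6 was -0.086, with 4 lower and 2 higher in Bama minipigs, where 49.5% of the 182 probes were lower. The summed signal of the endocrine probes was 98550 on the Bama array and 105517 on the Landrace array. With median scaling 5 of the 6 were lower and the median was -0.26. With scaling to the 75th percentile 5 were lower and the median was -0.27. These medians lay in the direction of the miR-99/100 members, but the median of the 182 probes also shifted, by -0.17 and -0.18. The share of the 182 probes lower under these scalings was not counted, so nothing is read from the counts. With quantile normalization 2 were lower, 2 higher and the median came to 0. That method sets probes of equal rank on both arrays, such as ssc-miR-7, to 0. No endocrine marker listed was near the bottom of either array.

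Markers of stromal and vascular cells, in which miR-99/100 miRNAs are also found, moved in the same direction as the miR-99/100 members. Of the 11 probes listed, 10 met the signal minimum, of which 9 were lower in Bama minipigs and 3 were lower by 2-fold or more, where the shares over the 182 probes were 49.5% and 3.3%. Their median log2 ratio was -0.73. Their summed signal was 18990 on the Bama array and 26193 on the Landrace array, a log2 ratio of -0.46, and ssc-miR-126 had the highest signal on both arrays. ssc-miR-143-5p was at or below 10 on both arrays. The probes of ssc-miR-199a*, ssc-miR-199a-3p and ssc-miR-199b* share a run of 20 bases and are not separate measurements (ssc-miR-199a* and ssc-miR-199a-3p are named after their values were seen). The part of these cells in the lower miR-99/100 signals was not tested, and in a whole lobe fewer cells of a type and less RNA per cell cannot be told apart.

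Lists for other cell types gave mixed values. Of 8 striated muscle probes 5 met the minimum, 3 of them higher and 1 lower by 2-fold or more, where 13.2% and 3.3% of the 182 probes were. The 3 higher probes, ssc-miR-1, ssc-miR-133a-3p and ssc-miR-133b, met it only through the Bama array, so nothing is read from their number. The muscle probes summed to 1538 on the Bama array and 667 on the Landrace array. On the Bama array ssc-miR-133b was the brightest of them, at 439, and on the Landrace array ssc-miR-206, at 278; ssc-miR-206, ssc-miR-1 and ssc-miR-133a-3p are named after their values were seen. ssc-miR-133a-5p, ssc-miR-208b and ssc-miR-499-3p were at or below 10 on both arrays. Of 5 blood probes 2 met the minimum, 1 lower and 1 higher, where 49.5% of the 182 probes were lower. The median log2 ratio of the blood probes was 0.024. It fell below 0 under 5 of the 6 other scalings and offsets, down to -0.16 with the 75th percentile. The blood probes summed to 5497 on the Bama array and 6026 on the Landrace array, with the highest signal on both arrays from ssc-miR-451 of red cells, at 5286 and 5841, while the white cell markers ssc-miR-142-3p, ssc-miR-142-5p and ssc-miR-155 were at or below 10 on both arrays. Of 8 neural and posterior lobe probes 5 met the minimum and none of these differed by 2-fold or more, where 16.5% of the 182 probes did. Among the 5 neural probes ssc-miR-153, named after its values were seen, met the minimum only through the Bama array. Its signal was 180.4 there and 98.0 on the Landrace array, so no direction is read from the list. The neural probes summed to 16690 on the Bama array and 15964 on the Landrace array, with the highest signal on both from ssc-miR-129a. The part of the muscle signals in any member's value was not tested.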

How the data were processed

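Anterior pituitary RNA of 2 breeds was measured on 1-colour Cy5 arrays, 1 array per breed, each from 3 pooled pigs. The deposited intensity values are linear; the authors subtracted background, applied a LOWESS filter and averaged repeat spots. Spot and background readings were not used here, so signal over background and spot error are unknown, and the number of arrays limits the precision. Log2 ratios were taken with no further scaling, for probes with a mean signal of at least 100, and 2-fold was the rule of size. No test was possible with 1 array per breed. Alternatives were median, 75th percentile, summed-signal and quantile scaling, cyclic loess (3 iterations), an offset of 50, no minimum, and minimums of 500 and 1000. The genes named were all members, their let-7 partners and family, miR-196, the probes nearest each member in signal and in sequence, and of each marker list (endocrine, stromal and vascular, muscle, blood, neural) the probe with the highest signal and those at the bottom of the array. Probes outside this rule are named in a few places, where the text says that they were chosen after their values were seen. Members and lists were chosen with earlier results of these data known. Mature sequences came from the array design, and gene neighbours from RefSeq Sscrofa11.1. Python 3.11.15, numpy 2.4.6, pandas 2.3.3, matplotlib 3.10.9, R 4.3.3 and limma 3.58.1 were used; scripts were tested on simulated data.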

Additional observations from a re-analysis of the deposited data

How the results depend on the processing

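Scaling moved the median log2 ratio of the 182 probes by -0.17 (median), -0.18 (75th percentile), -0.050 (summed signal), -0.095 (quantile) and -0.016 (cyclic loess), so values are best read against these shifts. With median scaling the log2 ratios were -0.56 for ssc-miR-100, -0.61 for ssc-miR-99a, -0.53 for ssc-miR-99b, -0.072 for ssc-miR-125a and -0.29 for ssc-miR-125b, with a members' median of -0.53. The let-7 partners were then at 0.17 (let-7a), 0.35 (let-7c) and 0.92 (let-7e), and the stromal and vascular median at -0.90. With scaling to the 75th percentile the values in the same order were -0.58, -0.62, -0.54, -0.085 and -0.30, with a median of -0.54, then 0.15, 0.34 and 0.91, and -0.91. With quantile normalization ssc-miR-125b was at 0, ssc-miR-99b at -0.61, ssc-let-7e at 0.98 and the stromal and vascular median at -0.94, which was -0.62 with cyclic loess. The 0 of ssc-miR-125b follows from its equal rank on both arrays. All 3 miR-99/100 members were lower in Bama minipigs under these alternatives and the offset. Only quantile normalization and cyclic loess could have turned their sign. The sign of ssc-miR-125a turned under median and 75th percentile scaling.

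Of the probes past 2-fold, 24 were higher and 6 lower (80% higher). With median or 75th percentile scaling 21 were higher and 10 lower (67.7%), with quantile normalization 21 and 9 (70%), and with the offset 22 and 3. With no minimum 69 were higher and 54 lower (56.1%), and 1 member passed, ssc-miR-10a, at signals of 0.567 and 2.04. Minimums of 500 and 1000 test fewer probes and gave 15 higher and 3 lower, and 10 higher and 2 lower. Apart from the minimums, the cause of these changes was not tested.

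Differences within clusters, and the medians of the let-7, endocrine and blood lists, were put through the same alternatives, a choice made after seeing the data. Over these 6, ssc-miR-99b relative to ssc-let-7e ranged from -1.58 to -1.44, ssc-miR-99a relative to ssc-let-7c from -0.96 to -0.89, and ssc-miR-100 relative to ssc-let-7a from -0.78 to -0.69. Relative to miR-125, ssc-miR-99b ranged from -0.67 to -0.46, ssc-miR-99a from -0.42 to -0.32 and ssc-miR-100 from -0.39 to -0.27. The median of miR-99/100 alone, also added then, was -0.39. Signal over background is unknown here, and it limits the dim probes most, among them both miR-10 probes.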
